A study of Mus musculus with 6 samples.

Results

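The genes of V(D)J recombination and end joining described here are 10 mouse genes chosen by name from 34797 gene names on the array. Rag1, Rag2 and Dntt act in developing lymphocytes, while Dclre1c, Prkdc, Xrcc4, Xrcc5, Xrcc6, Lig4 and Nhej1 join broken DNA ends in cells of every kind. They were measured by 15 of the 55681 probes on the array that were not controls, on 35 of 59305 spots. Rag1 and Rag2 had 2 probes each, Dclre1c had 4 and each other gene had 1. RNA came from multipotent progenitors (MPPs) and hematopoietic stem cells (HSCs), purified by FACS from mice of 2 to 3 months on a C57BL6 background. The 4 groups were Bmi1 KO MPPs, WT MPPs, Bmi1 KO HSCs and WT HSCs, with 3 samples each that the labels call biological replicates. Each of 6 Agilent arrays held 1 Bmi1 KO sample in the red dye Cy5 and 1 WT sample of the same population in the green dye Cy3. Bmi1 encodes a Polycomb repressor needed by blood stem cells. The labels give neither the part of Bmi1 that the KO allele lacks nor the surface markers of the sort. No array had its dyes exchanged, so in a KO/WT ratio genotype and the dye effect of a probe cannot be told apart. A constant dye effect cancels when MPPs are set against HSCs within 1 dye. All arrays shared 1 slide, with the HSC arrays and MPP array 1 in row 1 and MPP arrays 2 and 3 in row 2.

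V(D)J recombination assembles antigen receptor genes. The RAG1 and RAG2 proteins form the recombinase that cuts DNA at recombination signal sequences, and terminal transferase, the product of Dntt, adds nucleotides that no template specifies to the opened ends. The breaks are sealed by the general end joining machinery. Ku70 (Xrcc6) and Ku80 (Xrcc5) hold the ends, the kinase DNA-PKcs (Prkdc) activates the nuclease Artemis (Dclre1c), which opens the hairpin ends, and XRCC4, XLF (Nhej1) and DNA ligase IV (Lig4) join them. In mouse marrow, Rag1 and Dntt transcripts appear in progenitors primed for lymphoid fate, ahead of B and T cell commitment.

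The probes that carry the results are shown because probes of the same gene read different parts of its transcript and gave different values. Positions are those of the array files on mouse assembly mm9, and sequences are those of the array design. Rag1 lies on the minus strand of chromosome 2, where its probes occupy chr2:101478813-101478872 (A_51_P232411) and chr2:101481051-101481110 (A_55_P2043297). Rag2 lies beside it on the plus strand, with probes at chr2:101470723-101470782 (A_66_P105784) and chr2:101472445-101472504 (A_52_P259521). A_66_P105784 starts at base 1430 of the Rag2 transcript, in the coding sequence, and A_52_P259521 at base 3152. The Dntt probe lies at chr19:41133936-41133995, plus strand. The Prkdc probe spans chr16:15839317-15841922, plus strand, which is 2606 bases for a probe of 60, so it crosses at least 1 intron. Coding probes are given whole and the others by their last 30 bases, and capitals mark the polyadenylation motif AATAAA, which 10.1% of all probes contain.
Rag2 A_66_P105784: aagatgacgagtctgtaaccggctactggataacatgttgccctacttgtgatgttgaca
Prkdc A_51_P241667: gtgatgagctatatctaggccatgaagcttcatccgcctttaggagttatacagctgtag
Rag1 A_51_P232411: tactgtatggcagttgttctagttttccta
Rag1 A_55_P2043297: gagaatgcacctgttagctacagctaccta
Rag2 A_52_P259521: tcacatgtcattcaaggtccaatactgtgc
Dntt A_51_P516085: tgtctgaatctctgtgtattgccAATAAAa

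The 250 bases before the start of Rag1, Rag2 and Dntt are printed as the start regions of the lymphoid-specific members. They are RefSeq sequences on GRCm38.p6, whose positions are not those of mm9. Capitals mark the E-box motif CANNTG, which reads the same on both strands and is the kind of site that E proteins bind. The windows are chr2:101649533-101649782 for Rag1 (minus strand), chr2:101624462-101624711 for Rag2 (plus strand) and chr19:41029025-41029274 for Dntt (plus strand).
Rag1 upstream: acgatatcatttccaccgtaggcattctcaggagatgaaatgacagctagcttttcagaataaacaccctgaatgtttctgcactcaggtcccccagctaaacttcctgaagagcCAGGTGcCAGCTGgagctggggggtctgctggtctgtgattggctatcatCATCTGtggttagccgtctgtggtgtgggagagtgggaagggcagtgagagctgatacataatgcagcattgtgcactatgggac
Rag2 upstream: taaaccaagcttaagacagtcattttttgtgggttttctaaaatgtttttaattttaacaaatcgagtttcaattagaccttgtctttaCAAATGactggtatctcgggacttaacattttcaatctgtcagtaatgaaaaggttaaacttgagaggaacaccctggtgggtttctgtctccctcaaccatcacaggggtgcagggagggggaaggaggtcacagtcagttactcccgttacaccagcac
Dntt upstream: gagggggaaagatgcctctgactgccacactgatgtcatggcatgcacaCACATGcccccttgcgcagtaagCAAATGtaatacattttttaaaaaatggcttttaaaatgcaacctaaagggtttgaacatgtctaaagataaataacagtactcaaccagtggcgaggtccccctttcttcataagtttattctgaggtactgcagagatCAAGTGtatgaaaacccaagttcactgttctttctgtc
With 50 further bases after the start, the window of Rag1 held 4 such motifs, that of Dntt 3 and that of Rag2 2. Counted from the start of transcription, the upstream motifs began at -135, -128 and -85 in Rag1, at -161 in Rag2 and at -201, -178 and -38 in Dntt. Of the 32851 promoters in the table, 72.3% held at least 1 such motif and 6.49% at least 4, with a median of 1. Among the general members with a listed promoter (6 of 7, Prkdc not listed), the windows held 0 to 2. A match to these letters is a description of the sequence and not a site shown to be bound.

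Over the arrays, the median raw spot signal was 379 to 581 in the KO channel and 124 to 206 in the WT channel, and 78.8% to 83.9% of KO spots and 72.5% to 82.2% of WT spots were well above background by the scanner software's test. No member spot was saturated. Precision is limited by having 3 arrays a population. For the brighter Bmi1 probe (A_55_P2170335) the log2 KO/WT ratio was 0.23, -0.69 and 0.48 on MPP arrays 1, 2 and 3, and -0.39, -2.42 and -0.50 on HSC arrays 1, 2 and 3. The other Bmi1 probe (A_52_P39157) gave 0.93, 0.70 and -0.05 in MPPs, and 0.11, -1.66 and 1.36 in HSCs. Both probes passed the background test for every KO sample, and since the deleted part is not given they check no label. All 16 HSC markers were well above background on every HSC array in both channels. Their summed linear level was 82559 to 90787 in KO MPPs against 169929 to 222725 in KO HSCs, and 38813 to 43334 in WT MPPs against 49711 to 74555 in WT HSCs.

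Rag2 (probe A_66_P105784) and Dntt were higher in MPPs than in HSCs in both genotypes, and Rag1 passed the test in KO MPPs against KO HSCs by 1 of its 2 probes, which was well above background on 1 of 3 KO HSC arrays. The general end joining genes did not pass in either channel. A level here is the log2 of the background-corrected signal, quantile-normalized within its dye, so levels are compared within a dye and for the same probe only. Each value compares the 3 MPP arrays with the 3 HSC arrays in limma's test over all 44640 probes that passed a filter on dim probes, with Benjamini-Hochberg adjustment and a threshold of 0.05. Rag2 A_66_P105784, well above background on no HSC array, and Rag1 A_55_P2043297 passed this filter through MPP groups alone. Both probes thus had to be brighter in MPPs to be tested. In bulk RNA, fewer cells that express a gene and less of its RNA per cell cannot be told apart.

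Dntt levels were 13.49, 13.13 and 13.77 in KO MPPs, against 9.96, 10.05 and 9.61 in KO HSCs. WT levels were 11.85, 12.23 and 11.48 in MPPs, against 8.69, 9.08 and 9.52 in HSCs. Every MPP sample lay above every HSC sample of its dye, and HSCs themselves gave signal well above background on all arrays. The log2 difference was 3.59 (SE 0.29, adjusted p = 0.00943), a 12.05-fold higher level, in the KO channel. In the WT channel it was 2.76 (SE 0.33, adjusted p = 0.0490), or 6.76-fold. Leaving out any 1 array kept the difference at 3.44 to 3.76 in the KO channel, where the adjusted p exceeded 0.05 without MPP 1 (0.0702) and without MPP 3 (0.0607). For WT it stayed at 2.55 to 2.97, and no setting with 1 array left out kept the call (adjusted p 0.0890 to 0.176).

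Rag2, read by A_66_P105784, showed the largest difference between MPPs and HSCs among the 15 probes in both channels. KO MPPs had 10.98, 12.41 and 12.73, against 6.52, 6.64 and 6.19 in KO HSCs. WT MPPs had 9.17, 8.69 and 9.22, against 5.98, 5.75 and 6.04 in WT HSCs. No HSC sample of either genotype was well above background, so only a bound can be given. It sets the MPP mean against the lowest signal well above background on each HSC array, or the probe's own signal where that was higher. Bounds use levels after loess and Aquantile normalization and not the quantile levels above. On that scale the calculation gave 34.5-fold for KO MPPs against KO HSCs (means 11.34 against 6.23, adjusted p = 0.0123 from the quantile levels). The probe's own dim HSC signal was the higher value there, so this is the plain difference of the means. It is no minimum, since it leaves out the spread between arrays. The log2 difference of the quantile levels was 5.59, and 4.53 with slide row as a term, which sets MPP array 1 alone against the HSC arrays. For WT the same calculation gave 9.72 (means 9.59 in MPPs against 6.11 in HSCs), which exceeds the 8.60-fold of the quantile levels, so no bound is given that holds on both scales. The test on the WT quantile levels gave an adjusted p of 0.0218. With 1 array left out, the adjusted p lay between 0.0270 and 0.0637 in the KO channel, and the call was lost without HSC 1, HSC 2, MPP 2 or MPP 3. For WT it lay between 0.0361 and 0.12, and only leaving out MPP 2 kept the call.

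The other Rag2 probe, A_52_P259521, read 6.86, 7.32 and 7.26 in KO MPPs, against 6.37, 6.80 and 6.42 in KO HSCs. For WT none of its MPP or HSC samples was well above background, with levels from 5.88 to 6.08. KO MPPs were thus the only group in which this probe was measured on every array. Against KO HSCs the log2 difference of the quantile levels was 0.61 (SE 0.27, adjusted p = 0.449). The loess and Aquantile levels gave 1.43-fold, which is again the plain difference from dim HSC signals and no minimum. The 2 Rag2 probes disagreed in WT MPPs, where A_66_P105784 was well above background on 3 of 3 arrays and A_52_P259521 on 0 of 3.

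Rag1 levels by A_51_P232411 were 9.77, 11.99 and 12.36 in KO MPPs, against 7.65, 8.45 and 8.26 in KO HSCs. WT MPPs had 7.04, 6.79 and 7.21, against 6.64, 6.83 and 6.36 in WT HSCs. The KO groups did not overlap and the WT groups did. Its log2 difference was 3.26 (SE 0.69, adjusted p = 0.16) in the KO channel and 0.40 (SE 0.26, adjusted p = 0.505) in the WT channel. By A_55_P2043297, KO MPPs had 9.79, 11.23 and 11.78, against 6.28, 6.19 and 7.22 in KO HSCs, where 1 of the 3 HSC arrays was well above background. That difference was 4.37 (SE 0.57, adjusted p = 0.0489) and lost its call when any 1 array was left out (adjusted p 0.0565 to 0.182). For the same probe WT MPPs had 6.18, 8.52 and 6.93, against 5.86, 5.99 and 5.98 in WT HSCs, none of which was well above background. The WT difference had an adjusted p of 0.391, and no fold bound held on both scales.

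**Figure D1:**
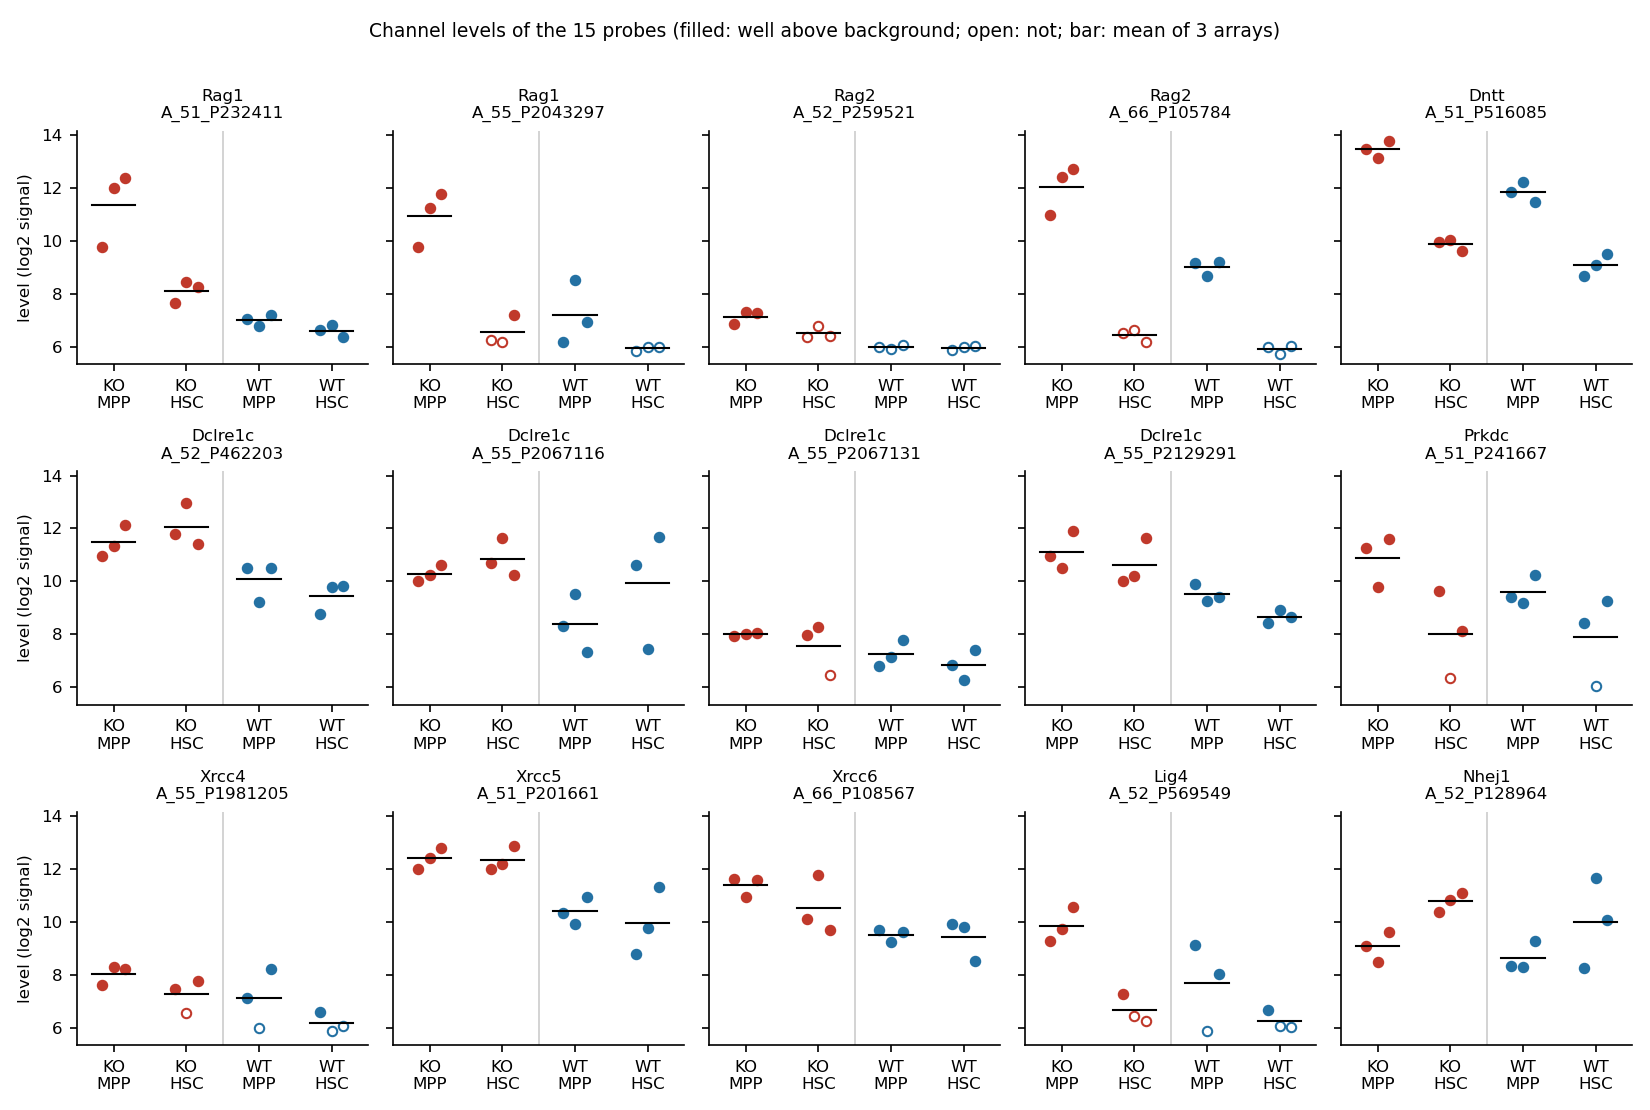
Levels (log2 of the background-corrected, quantile-normalized signal, vertical axis) of the 15 probes in KO MPPs, KO HSCs, WT MPPs and WT HSCs. Points are single arrays, open where not well above background, and bars are means of 3 arrays. For Dntt and for Rag2 A_66_P105784 every MPP point lies above every HSC point of its channel, with Dntt at 13.13 to 13.77 in KO MPPs against 9.61 to 10.05 in KO HSCs.

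In the KO channel 3 of the 5 lymphoid-specific probes and 0 of the 10 general probes were called, against 157 of 44640 probes over the array (0.352%), of which 129 were higher in MPPs (0.289%). In the WT channel 2 of 5 and 0 of 10 were called, against 126 of 44640 probes (0.282%), with 100 higher in MPPs (0.224%). All 5 lymphoid-specific probes were without overlap and higher in KO MPPs than in KO HSCs, and so were 2 of the 10 general probes (Prkdc and Lig4), against 8.36% of all probes. For WT the numbers were 3 of 5 and 1 of 10, against 8.24%. All 15 probes passed the filter, but 6 of them (both Rag2 probes, Rag1 A_55_P2043297, Prkdc, Xrcc4 and Lig4) passed through MPP groups alone and so had to be brighter there. With slide row as a term, the estimate is MPP array 1 minus the mean of the HSC arrays of its row. It was 4.53 for Rag2 A_66_P105784, 3.62 for Dntt and 3.23 for Rag1 A_55_P2043297 in the KO channel, with adjusted p of 0.108, 0.203 and 0.470. For WT it was 3.25 for Rag2 (adjusted p = 0.299) and 2.75 for Dntt (adjusted p = 0.590). Under this term 0 probes of the array were called in either channel. The calls of Rag1 A_55_P2043297 in the KO channel and of Dntt in the WT channel were also lost with the deposited processed signals (adjusted p 0.0809 and 0.0750) and with no filter on dim probes (0.0764 and 0.0730). Loess and Aquantile levels ended the Rag1 call too (0.0623), and median centring the Dntt call (0.0711).

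Among the general members, the differences between populations went in different directions. Lig4, the ligase, had levels of 9.26, 9.74 and 10.56 in KO MPPs, against 7.26, 6.45 and 6.24 in KO HSCs. The groups did not overlap, and only HSC array 1 was well above background among the HSC samples. The log2 difference of 3.20 (SE 0.44) had an adjusted p of 0.0555 and passed the threshold when 1 probe a gene was tested (adjusted p = 0.0423). Lig4 in the WT channel read 9.11, 5.88 and 8.03 in MPPs, of which 5.88 on MPP array 2 was not well above background. The WT HSCs had 6.68, 6.06 and 6.03, and the difference of 1.41 (SE 0.81) had an adjusted p of 0.463.

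Prkdc, the kinase of the end joining complex, read 11.26, 9.79 and 11.62 in KO MPPs, against 9.62, 6.34 and 8.11 in KO HSCs. The WT channel gave 9.40, 9.17 and 10.23 in MPPs, against 8.41, 6.05 and 9.27 in HSCs. HSC array 2 was low in both channels and not well above background in either. The differences were 2.86 (SE 0.88, adjusted p = 0.313) in the KO channel and 1.69 (SE 0.84, adjusted p = 0.412) in the WT channel. Nhej1, which stimulates the ligation step, had the opposite sign, with 9.10, 8.48 and 9.62 in KO MPPs against 10.37, 10.83 and 11.11 in KO HSCs. These groups did not overlap, and the difference was -1.70 (SE 0.38, adjusted p = 0.173). Its WT levels were 8.33, 8.29 and 9.26 in MPPs, against 8.27, 11.66 and 10.06 in HSCs, and the groups overlapped (-1.37, SE 0.85, adjusted p = 0.496).

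The Ku subunits differed little between populations relative to their error. Xrcc5 averaged 12.39 ± 0.38 in KO MPPs against 12.34 ± 0.48 in KO HSCs, and 10.39 ± 0.52 in WT MPPs against 9.97 ± 1.28 in WT HSCs (SD, n = 3 each). Xrcc6 averaged 11.38 ± 0.38 in KO MPPs against 10.51 ± 1.12 in KO HSCs, and 9.51 ± 0.25 in WT MPPs against 9.41 ± 0.78 in WT HSCs. Their differences ranged from 0.05 to 0.87 with SE of 0.35 to 0.67. Xrcc4, which holds the ligase, had differences of 0.78 (SE 0.40) in the KO channel and 0.95 (SE 0.58) in the WT channel. The 4 Dclre1c probes did not share a sign. Their differences were -0.58, -0.56, 0.42 and 0.49 in the KO channel and 0.61, -1.53, 0.39 and 0.86 in the WT channel, for A_52_P462203, A_55_P2067116, A_55_P2067131 and A_55_P2129291. Of these, A_55_P2129291 was the only probe without overlap between WT MPPs and WT HSCs (adjusted p = 0.296).

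**Figure D2:**
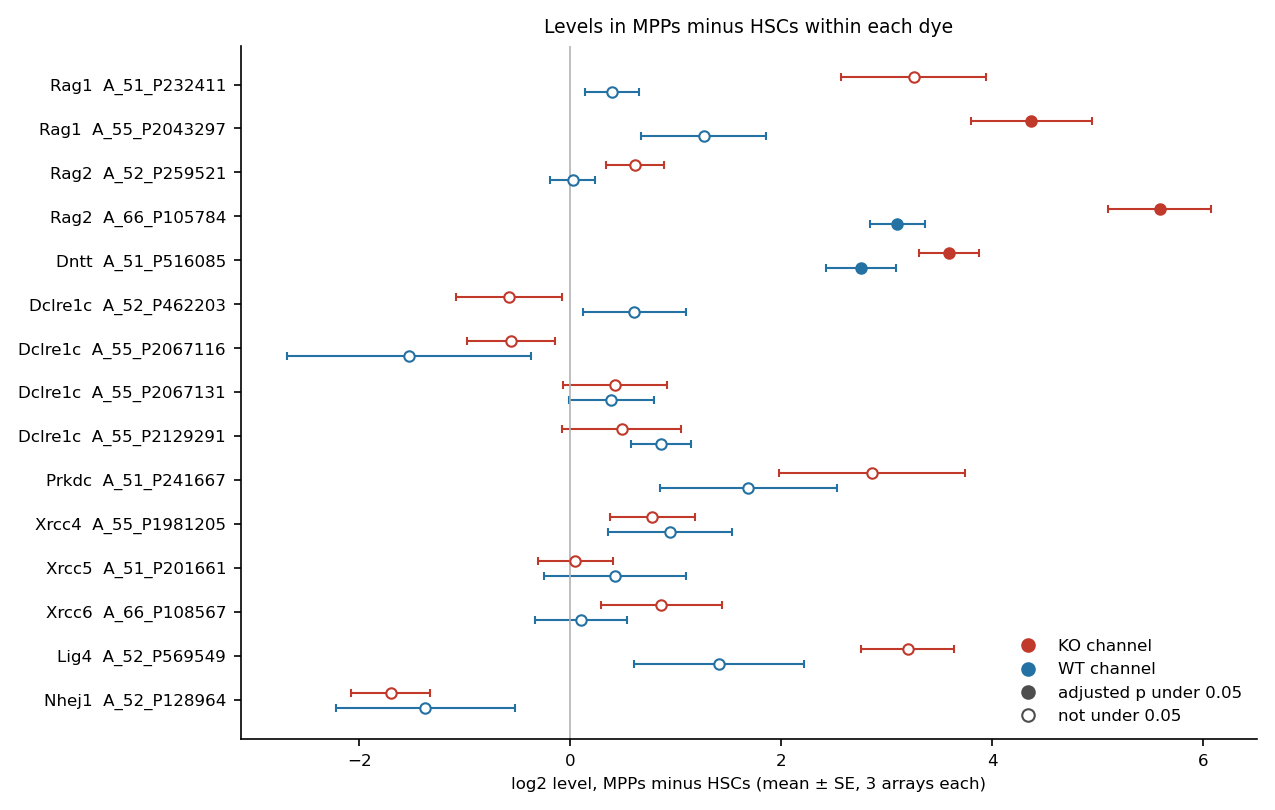
Difference in log2 level, MPPs minus HSCs (horizontal axis), of each probe in the KO channel (red) and the WT channel (blue), with the model's standard error from 3 arrays a population. Filled points have an adjusted p under 0.05, and they are Rag2 A_66_P105784 and Dntt in both channels and Rag1 A_55_P2043297 in the KO channel. The value of 5.59 drawn for Rag2 in the KO channel uses HSC signals that were not well above background. The text gives 34.5-fold for it from the loess and Aquantile levels.

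Repeated spots showed how much of this spread arose within an array. The Rag2 probe A_52_P259521 and the Prkdc probe were each printed 10 times on every array, and both Rag1 probes 2 times. For Prkdc the SD of log2 raw signal over the 10 spots of an array was 0.05 to 0.10 in KO MPPs and 0.07 to 0.15 in KO HSCs. Between the 3 arrays of a group it was 0.96 in KO MPPs and 1.83 in KO HSCs. In the WT channel the within-array SD was 0.07 to 0.13 in MPPs and 0.08 to 0.23 in HSCs, and the SD between arrays was 0.65 in MPPs and 2.30 in HSCs. The low Prkdc value of HSC array 2 held in all 10 spots of both channels, none of which was well above background. For the Rag1 probe A_51_P232411 in KO MPPs the 2 spots of an array differed by an SD of 0.005 to 0.015, while the SD between arrays was 1.39. Prkdc thus varied more between arrays than between spots of an array in all 4 groups. Rag1 did so by both probes in the MPP groups, but not everywhere in HSCs. For A_55_P2043297 in WT HSCs the SD was 0.032 between arrays, against 0.055 to 0.24 within them. For A_51_P232411 in KO HSCs it was 0.13 between arrays, against 0.070 to 0.26 within them. The Rag2 probe A_52_P259521, dim outside KO MPPs, had SDs between arrays of 0.12 in KO HSCs and 0.10 in WT HSCs. Its within-array SDs there were higher, at 0.13 to 0.19 and 0.16 to 0.21. In MPPs its SD between arrays was 0.22 in KO and 0.29 in WT, against 0.11 to 0.19 and 0.16 to 0.23 within them.

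**Figure D3:**
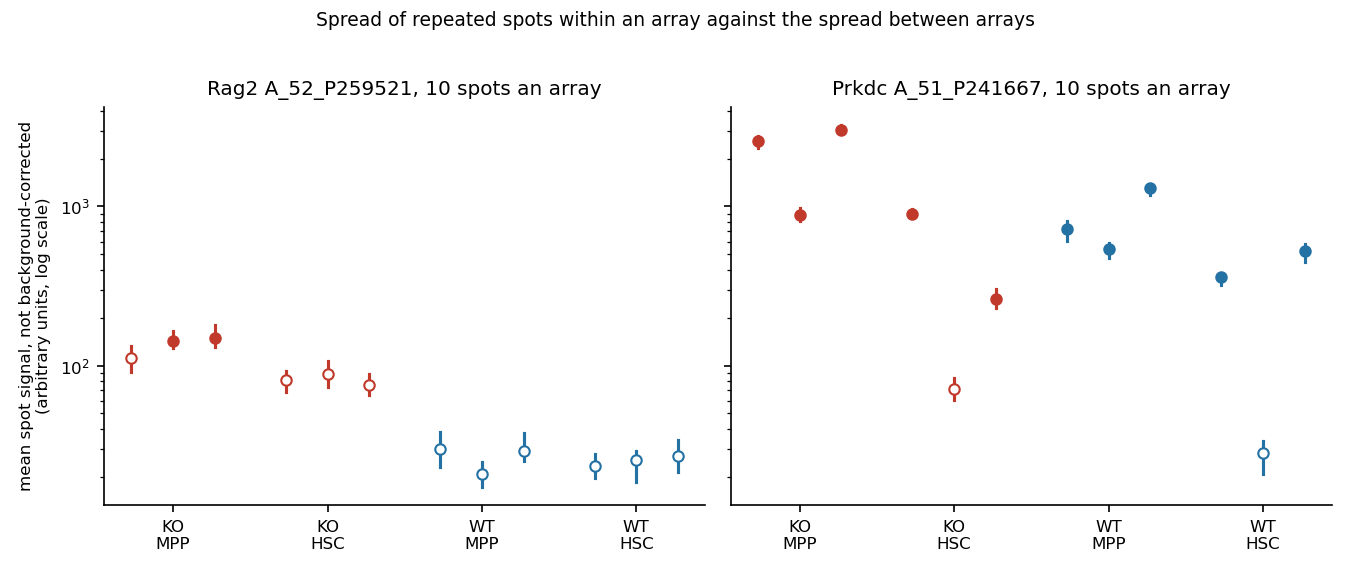
Raw spot signal (not background-corrected, log axis) of the Rag2 probe A_52_P259521 and the Prkdc probe, each printed 10 times an array, by group. A point is the mean of the 10 spots of an array and its line runs from the lowest to the highest spot, and open points mark arrays on which at least 1 spot was not well above background. For Prkdc the lines are short beside the distance between arrays, and HSC array 2 is lowest in both channels, at 71.0 in KO and 28.2 in WT.

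Bmi1 KO samples were next compared with WT samples of the same population. In MPPs the largest log2 ratios among the members were those of Rag1 and Rag2, but no member and no other probe passed the test. Rag1 had log2 KO/WT ratios of 1.37, 4.02 and 3.95 by A_51_P232411 on MPP arrays 1, 2 and 3. The mean was 3.11 (SE 0.55), an 8.65-fold ratio, with an adjusted p of 0.992 in limma's test (unadjusted 0.00109). By A_55_P2043297 its ratios were 2.50, 1.45 and 3.56, with a mean of 2.51 (SE 0.41) and an adjusted p of 0.992 (unadjusted 0.000741). All Rag1 ratios in MPPs were positive, and MPP array 1 was well below the others by the first probe but not by the second. A ratio as high as that of A_51_P232411 was reached by 12 of 44640 probes, and as high as that of A_55_P2043297 by 32.

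In HSCs the Rag1 ratios were -0.06, 0.38 and 0.86 by A_51_P232411 (mean 0.39, SE 0.55, adjusted p = 0.863). By A_55_P2043297, of which only the KO sample of HSC array 3 was well above background, they were 0.12, -0.12 and 0.53. Every Rag1 ratio in MPPs exceeded every Rag1 ratio in HSCs for the same probe. The KO effect in MPPs minus that in HSCs was 2.72 (SE 0.78) by A_51_P232411 and 2.33 (SE 0.59) by A_55_P2043297, both with an adjusted p of 0.968 (unadjusted 0.0119 and 0.00645). With slide row as a term, which leaves MPP array 1 to be set against the HSC arrays, the first was 0.97 (SE 0.55) and the second 2.33 (SE 0.91).

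Rag2 had log2 KO/WT ratios of 0.45, 2.55 and 2.25 in MPPs by A_66_P105784, with a mean of 1.75 (SE 0.43) and an adjusted p of 0.992 (unadjusted 0.00604). MPP array 1 was low among the 3, as it was for Rag1 by A_51_P232411. It was the only MPP array in the slide row of the HSC arrays, so the higher Rag2 ratios came from the other row alone. By A_52_P259521 the mean log2 ratio in MPPs was 0.41 (SE 0.21, adjusted p = 0.992). WT MPPs were not well above background on any array, and the bound calculation gave 1.32-fold. This is no minimum, since the log2 ratio ran from 0.12 to 2.02 under the alternatives that kept all arrays. In HSCs neither Rag2 probe was well above background in either channel, and no ratio is given. Dntt gave ratios of 0.20, -0.68 and 0.77 in MPP samples (mean 0.10, SE 0.36, adjusted p = 1.00), against -0.12, -0.35 and -1.19 in HSC samples (mean -0.55, SE 0.36, adjusted p = 0.732). The Dntt ratios of MPPs and HSCs overlapped, and without MPP array 3 the mean in MPPs was -0.24.

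**Figure D4:**
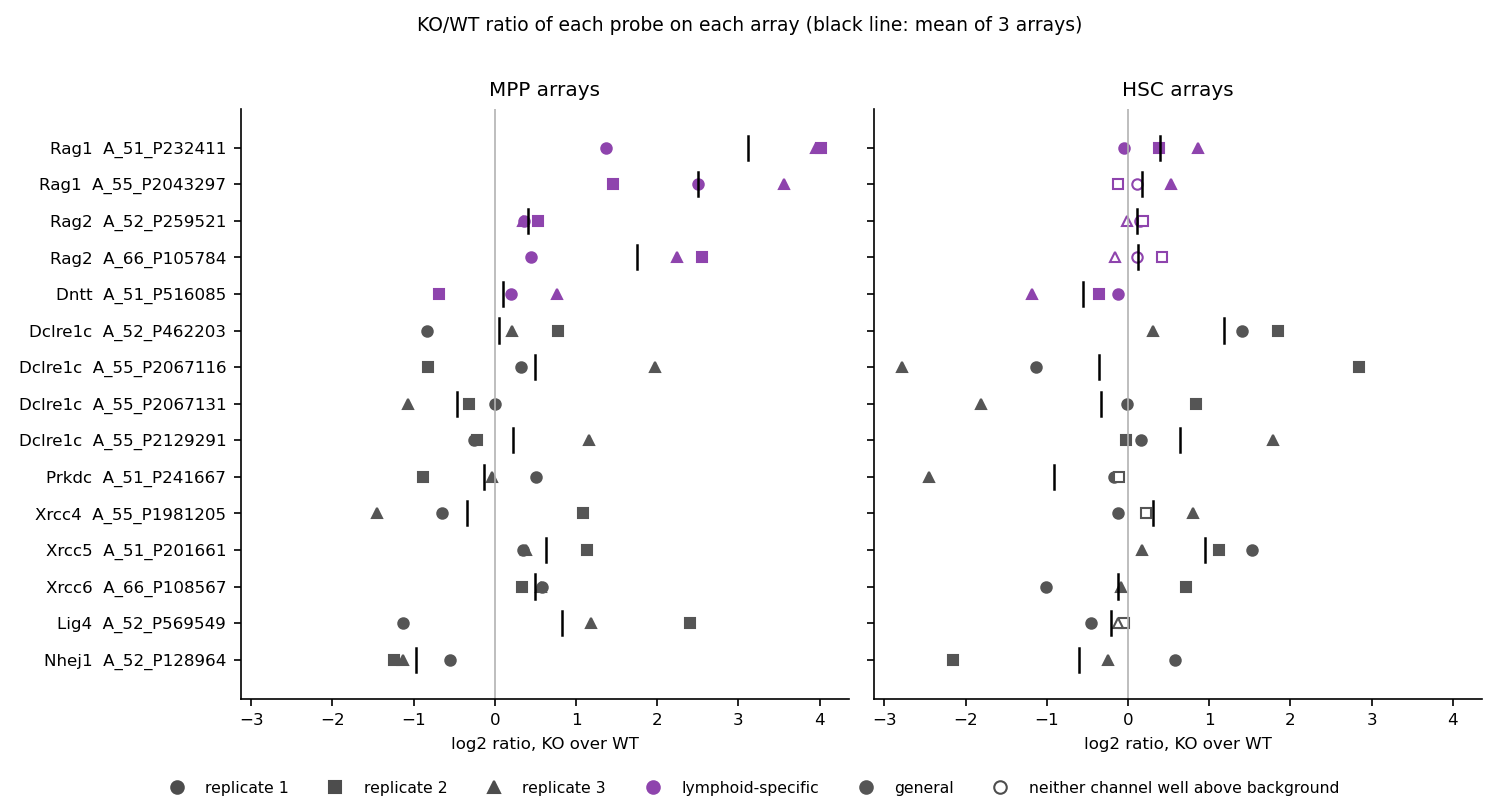
Log2 ratio of KO over WT (horizontal axis) of each probe on MPP arrays (left) and HSC arrays (right), with circles, squares and triangles for replicates 1, 2 and 3 and a black line at their mean. Purple marks the lymphoid-specific genes and grey the general ones, and open symbols mark arrays on which neither channel was well above background. Both Rag1 probes and Rag2 A_66_P105784 lie right of 0 on all 3 MPP arrays, from 0.45 to 4.02, while Dntt lies on both sides of 0 there and the general genes share no side.

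Of the 15 member probes, 0 were called in MPPs and 0 in HSCs, as were 0 of 44640 probes in each (0%). At an unadjusted p under 0.05 there were 3 of 5 lymphoid-specific and 0 of 10 general probes in MPPs, against 2148 of 44640 probes (4.81%). In HSCs there were 0 of 5 and 2 of 10 (Dclre1c A_52_P462203 and Xrcc5), against 3278 of 44640 (7.34%). Ratios positive on all 3 MPP arrays were seen for 4 of 5 lymphoid-specific probes (both Rag1 and both Rag2 probes) and for 2 of 10 general probes (Xrcc5 and Xrcc6), against 14.4% of all probes. Rag2 A_52_P259521 among them passed the filter through KO MPPs alone and so had to be brighter there. On the HSC arrays this held for 0 of 5 and 2 of 10, against 13.2%. The KO effect was larger in MPPs than in HSCs without overlap for 4 of 5 lymphoid-specific probes and 0 of 10 general ones, against 3.95% of all probes. The HSC ratios of Rag2 came from signals not well above background. So did those of Rag1 A_55_P2043297, apart from the KO sample of HSC array 3. The KO effect in MPPs minus that in HSCs was called for 0 of 44640 probes (0%), with 1853 (4.15%) at an unadjusted p under 0.05. The mean KO effect over both populations was called for 0 of 44640 probes (0%), with 3527 (7.90%) at an unadjusted p under 0.05.

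The general end joining genes showed no shared direction in KO against WT. Xrcc5 (Ku80) was positive on all 6 arrays, with ratios of 0.35, 1.14 and 0.39 in MPPs and 1.53, 1.12 and 0.17 in HSCs. Its mean KO effect over both populations was 0.78 (SE 0.24, adjusted p = 0.619). Nhej1 had ratios of -0.55, -1.24 and -1.12 in MPPs (mean -0.97, SE 0.51, adjusted p = 0.992) and 0.58, -2.15 and -0.24 in HSCs. Lig4 ranged from -1.12 on MPP array 1 to 2.40 on MPP array 2, a span wider than its mean of 0.82. Xrcc6 (Ku70) had 0.58, 0.33 and 0.57 in MPPs, against -1.02, 0.71 and -0.08 in HSCs. The Dclre1c probe A_55_P2067116 varied most among HSC arrays, with ratios of -1.14, 2.84 and -2.79. Prkdc and Xrcc4 had mean ratios of -0.14 (SE 0.53) and -0.34 (SE 0.49) in MPPs, and of -0.91 (SE 0.53) and 0.30 (SE 0.49) in HSCs.

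With the brightest probe of each gene, the mean log2 KO/WT ratio of Rag1, Rag2 and Dntt was 0.67, 1.96 and 2.32 on MPP arrays 1, 2 and 3, and that of the 7 general genes was -0.25, 0.52 and -0.04. The lymphoid-specific mean exceeded the general mean on every MPP array, by 0.92, 1.44 and 2.36 (mean 1.57 ± 0.73 SD, n = 3). On the HSC arrays it differed by -0.27, -0.08 and 0.07 (mean -0.09 ± 0.17 SD, n = 3), with the Rag2 term coming from signals not well above background. The MPP and HSC values did not overlap. No p is given for this score. Dntt did not follow the Rag genes, so the lymphoid-specific mean in MPPs rests on Rag1 and Rag2. Median ratios in MPPs were 1.75 over the 3 lymphoid-specific genes and 0.05 over the 7 general ones, against 0.0056 over all 28977 features with 1 probe a gene.

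Marker lists of other cell types were read on the same arrays. The 16 B cell lineage markers, such as the B cell receptor subunit Cd79a and the surrogate light chain genes Igll1 and Vpreb1, had a median log2 KO/WT ratio of 0.40, 1.17 and 1.83 on MPP arrays 1, 2 and 3. On the HSC arrays it was 0.10, 0.12 and -0.44. Of the 14 that passed the filter, 0 were called and 13 had a positive mean ratio in MPPs, with a median of 1.14, against 8 and 0.08 in HSCs. Igll1 had a mean ratio of 4.03 (SE 0.58), Vpreb1 4.33 (SE 0.87) and Cd79a 2.98 (SE 0.76) in MPPs, each with an adjusted p of 0.992. The summed linear level of the list was 72727, 150064 and 222464 in KO MPPs, against 88539, 89443 and 72500 in KO HSCs. In WT it was 25413, 21993 and 17046 in MPPs, against 25898, 26404 and 32076 in HSCs. In KO MPPs 14 of 16 were well above background on all arrays, and 13 in each other group, while Ms4a1, the CD20 gene of later B cells, was on no array of any group. The part of B lineage RNA in the Rag1 and Rag2 ratios was not tested.

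The T and NK cell markers had median ratios of -0.0097, -0.035 and -0.11 on MPP arrays 1, 2 and 3 and of -0.0014, -0.11 and -0.28 on the HSC arrays. Of 17, 16 were well above background on all arrays in KO MPPs and KO HSCs and 15 in the WT groups, and their summed level was 17622 to 22225 in KO MPPs against 17512 to 30598 in KO HSCs, and 6800 to 8118 in WT MPPs against 10181 to 13312 in WT HSCs. The 12 early lymphoid progenitor markers, which include Rag1, had median ratios of -0.08, -0.34 and -0.15 in MPPs and 0.06, 0.04 and 0.34 in HSCs. Their summed level separated the populations, at 102337 to 120604 in KO MPPs against 44249 to 58479 in KO HSCs, and at 44077 to 61145 in WT MPPs against 13516 to 15330 in WT HSCs. Flt3, the cytokine receptor of lymphoid-primed progenitors, was higher in MPPs by 2.92 (SE 0.30, adjusted p = 0.0224) in the KO channel and by 3.03 (SE 0.29, adjusted p = 0.0289) in the WT channel. Of the 16 HSC markers, 2 were called lower in KO MPPs than in KO HSCs, against 21 of all 28977 features with 1 probe a gene. The median difference of these HSC markers was -1.29, and only 3 had a positive difference. In any comparison, 0 of 10 erythroid and 0 of 16 granulocyte and monocyte markers were called. Among erythroid markers, KO/WT ratios in MPPs were 2.75 (SE 0.82) for Slc4a1, 1.87 (SE 0.53) for Hbb-b1 and 3.62 (SE 1.60) for Hba-a1, each with an adjusted p of 0.992. Of the 10 erythroid markers tested, only 5 had a positive mean ratio in MPPs, and the median of these means was -0.04. The list's median ratio was -0.25, -0.05 and 0.40 on MPP arrays 1, 2 and 3, and its summed level 92750, 142967 and 165659 in KO MPPs against 111746, 140164 and 117368 in KO HSCs. In WT the sum was 40480, 23416 and 25018 in MPPs against 37199, 39613 and 68098 in HSCs. The part of erythroid RNA in the Rag1 and Rag2 ratios was not tested.

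**Figure D5:**
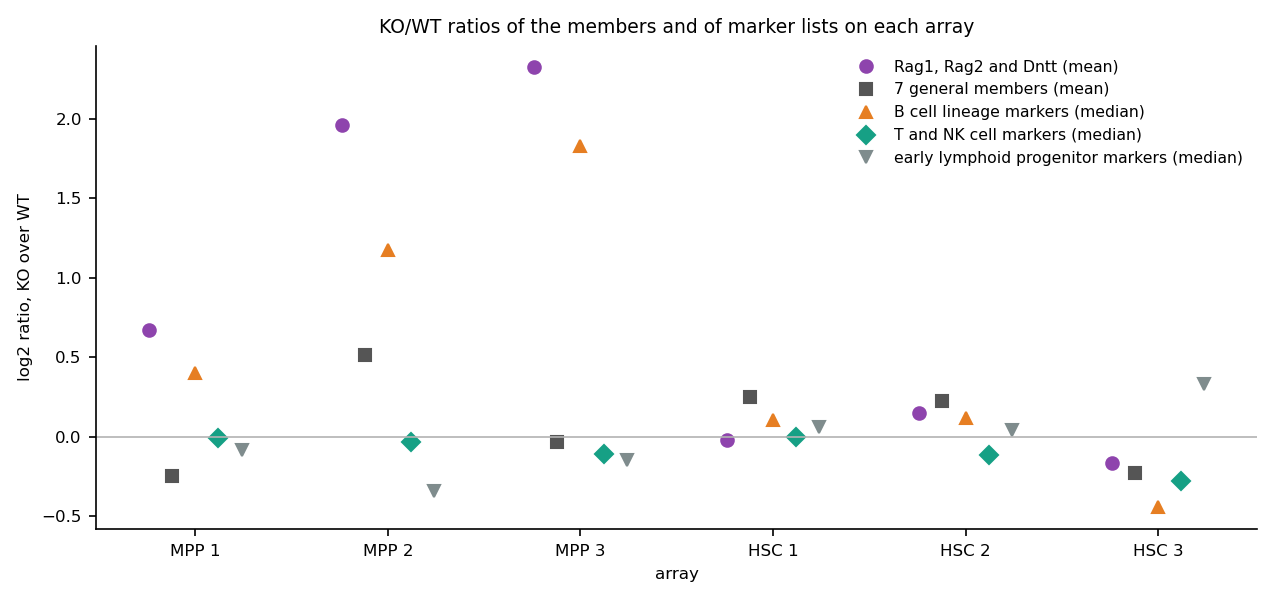
Log2 ratio of KO over WT (vertical axis) on each of the 6 arrays for the mean of Rag1, Rag2 and Dntt, the mean of the 7 general genes and the medians of 3 marker lists. On MPP arrays 1, 2 and 3 the lymphoid-specific mean (0.67, 1.96, 2.32) and the B cell lineage median (0.40, 1.17, 1.83) lie above 0, and on the HSC arrays all 5 values lie between -0.44 and 0.34.

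Among 21 regulators that act on Rag or Dntt transcription, 2 were called in KO MPPs against KO HSCs and 0 in the other comparisons. Over all 28977 features with 1 probe a gene, 122 (0.421%) were called in KO MPPs against KO HSCs and 96 (0.331%) in WT MPPs against WT HSCs. Satb1, a chromatin organizer, was higher by 3.74 (SE 0.42, adjusted p = 0.0344), with a mean level of 14.63 in KO MPPs against 10.89 in KO HSCs. In the WT channel it averaged 13.22 in MPPs against 7.93 in HSCs (5.29, SE 1.16, adjusted p = 0.189). Pax5, the B lineage commitment factor, was higher by 4.40 (SE 0.52, adjusted p = 0.0383), with 14.06 in KO MPPs against 9.65 in KO HSCs. For Ebf1, an earlier B lineage factor, the difference was 5.51 (SE 0.80, adjusted p = 0.0651). In KO against WT MPPs the ratios with the smallest p in the list were those of Pax5 (3.91, SE 0.47), Ebf1 (5.20, SE 0.65) and Lef1 (3.104, SE 0.58), none of which passed (adjusted p 0.865 to 0.992). Over all 21 the median ratio in MPPs was -0.19, and 8 were positive.

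Other DNA break genes did not pass in any of the 6 comparisons. Of 29 accessory end joining and break response genes, 27 were tested, and their median difference between MPPs and HSCs was 0.45 in the KO channel (17 positive) and 0.25 in the WT channel (14 positive). The smallest p belonged to H2afx, the histone variant marked at breaks, at 1.51 (SE 0.32, adjusted p = 0.16) in the KO channel and 1.24 (SE 0.31, adjusted p = 0.234) in the WT channel. The 20 homologous recombination genes had median differences of 1.17 (16 positive) in the KO channel and 0.77 (15 positive) in the WT channel. Over all features the medians were -0.09 in each channel. Rad54l, a DNA translocase of this pathway, differed by 1.72 (SE 0.47, adjusted p = 0.260) in the KO channel and by 1.91 (SE 0.45, adjusted p = 0.211) in the WT channel. Median KO/WT ratios in MPPs were 0.07 for the accessory list and 0.13 for homologous recombination.

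Across the 12 channel levels, each dye centred on its own mean, Rag2 correlated with Dntt at r = 0.96 and with Rag1 at r = 0.88, and Rag1 with Dntt at r = 0.74 (brightest probes). Among the general genes Lig4 correlated with Rag2 at r = 0.88, Prkdc at r = 0.74, Xrcc4 at r = 0.61 and Xrcc6 at r = 0.43. Nhej1 ran against Rag2 at r = -0.69, and Xrcc5 (r = 0.19) and Dclre1c (r = -0.02) showed little relation to it. With Dntt, Lig4 (r = 0.79) and Prkdc (r = 0.74) correlated about as Rag1 did. These 12 points share 6 arrays and a split by population, so r is given as a description. The Rag2 levels of all HSC samples and some levels of Lig4, Xrcc4 and Prkdc were not well above background. Their r values thus rest partly on dim signals. Of 15584 named features, those most like Rag1 included Igll1 (r = 0.97), Vpreb1 (r = 0.97), Lef1 (r = 0.96) and Cecr2 (r = 0.96). Those most like Dntt were Flt3 (r = 0.98), Drc7 (r = 0.96), Rag2 (r = 0.96), Cebpa (r = 0.95) and Bex6 (r = 0.95). Igll1, the feature most like Rag1, averaged 13.08 in KO MPPs against 8.34 in KO HSCs, and 7.88 in WT MPPs against 6.89 in WT HSCs. Flt3, the feature most like Dntt, averaged 14.83 in KO MPPs against 11.91 in KO HSCs, and 13.55 in WT MPPs against 10.52 in WT HSCs.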

How the data were processed

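The members and all gene lists were chosen with earlier results of these data known. RNA was extracted with Trizol, and 10 µg of total RNA was labelled by reverse transcription, per the labels. The authors deposited, for each array, the intensity of every spot and its local background in both channels, the processed intensity, and a log10 ratio of processed red over green, and the series file repeats this ratio (largest difference 0). Per the file headers the scans were read with Agilent Feature Extraction 10.7.3.1, while the submitters' processing notes name 8.5.1.1. The other deposited columns, a score of 0 or 1, flag spots that are saturated, uneven, outlying or well above background.

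Mean intensities were background-corrected with limma 3.58.1 (R 4.3.3; normexp, offset 50). Log2 ratios were loess-normalized within arrays, and log2 levels quantile-normalized within each dye. Control and marked spots had weight 0 in the loess curve. Marked spots (4 of 210 member spots over the arrays) were left out and the spots of a probe averaged. A probe was tested if any of the 4 groups had it well above background on each of its 3 arrays and all 6 arrays gave a value (44640 probes). limma (lmFit, eBayes) was fitted to all 6 arrays with 1 mean per population, with Benjamini-Hochberg adjustment over all probes. What the p-values reflect is variation among these samples, which the labels call biological replicates. With 3 arrays a sign-flip permutation cannot go below p = 0.25, and 3 against 3 cannot go below 0.1.

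The fold bounds rest on loess and Aquantile levels, which no dye swap balances. All 10 members and each of their probes were named. Of the other lists up to 4 members with the smallest p were named, and the 5 features most like Rag1 and Dntt, except for some that are not reported here. Files were read with the R package data.table (1.17.8) and jsonlite (2.0.0). The steps were tested on simulated data. Alternatives were other background, scaling, filter and probe rules, the deposited values, a replicate block, slide row and leaving out each array.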

Additional observations from a re-analysis of the deposited data

How the results depend on the processing

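Of 1263 values of single member probes under the alternatives, 39 lost a call, 1 gained it (Lig4), 40 uncalled values moved by more than 1 SD, and the other 1183 did none of these. A sign change occurred in 54, none of them a called value. Most of the 1263 had no call to lose. In the KO channel the call was kept in 8 of 10 settings with all arrays and 4 of 6 with 1 left out for Dntt. It was kept in 7 of 9 and 2 of 6 for Rag2 A_66_P105784, and in 3 of 8 and 0 of 6 for Rag1 A_55_P2043297. In the WT channel it was kept in 5 of 10 and 0 of 6 for Dntt, and in 7 of 9 and 1 of 6 for Rag2 A_66_P105784. For MPPs against HSCs in the KO channel, 157 probes were called, and 85 with no filter on dim probes, 93 with loess and Aquantile levels, 0 with slide row as a term and 36 to 125 with 1 array left out. For MPPs against HSCs in the WT channel, 126 were called, and 63 with no filter, 78 when a probe had to be well above background on all arrays in both dyes, 0 with slide row and 0 to 105 with 1 array left out. A replicate block that pairs arrays of the same number gave 0 calls in the KO channel and 0 in the WT channel. Correlations of same-numbered deviations were weak, at -0.07 to 0.16. In the WT channel each of them exceeded the correlations between different numbers. In the KO channel only that of replicate 2 did, and for the log2 ratios none did. Correlations this weak cannot decide whether the numbers pair the samples. With median centring in place of loess, the mean KO effect over HSCs and MPPs had 157 calls, all higher in KO, while the median of all probes shifted by 0.32 in HSCs and 0.29 in MPPs, and no member was among the calls (smallest adjusted p 0.103, for Xrcc5). The difference of lymphoid-specific minus general members, KO over WT in HSCs, was 0.071 from the deposited log ratios, -0.306 under median centring and -0.427 with the strict filter, which leaves out Rag2; in MPPs it kept its sign under every alternative run, at 1.18 to 1.90. The cause of these changes was not tested. Dim signals limit Rag2, Rag1 A_55_P2043297, Lig4, Xrcc4 and Prkdc, each not well above background on at least 1 HSC array in each channel. Lig4 and Xrcc4 were also dim on WT MPP array 2, and Rag2 A_52_P259521 on every WT MPP array.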
